A study of Homo sapiens with 8 samples.

Results

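To ask which stretches of chromatin were open in hepatic stellate cells after 4 days on a stiff matrix but not after 2 days, or the reverse, ATAC-seq peak lists of the D4 stiff and D2 stiff groups were compared. The cells were LX-2, an immortalised human stellate cell line labelled as wild type, moved from culture plastic to polyacrylamide hydrogels coated with fibronectin. The stiff gel had a stiffness of about 40 kPa, and a soft gel of about 2 kPa carried the other 4 libraries of the series. Each group had 2 libraries, so that 4 of the 8 peak lists, with 261706 of 466883 peaks, entered the comparison. All 4 libraries came from a single cell line, the study states that its sequencing had at least 2 biological replicates, and no label ties a replicate number to a shared culture or day. Peaks sharing 1 bp or more across the 4 lists were joined into 90928 merged regions. A D4-only region had a peak in both D4 stiff and in neither D2 stiff library, and a D2-only region had the opposite pattern. The rule gave 4054 D4-only regions, 4.46% of the merged regions, and 1073 D2-only regions, 1.18%, or 5127 in all.

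Hepatic stellate cells store vitamin A in the healthy liver, and in injured liver they turn into contractile cells that lay down collagen, a change that stiff surroundings promote. In ATAC-seq a transposase inserts sequencing adapters where DNA is not covered by nucleosomes, so that peaks mark promoters and the more distant enhancers. AP-1 factors, dimers of the JUN, FOS and ATF families, and TEAD factors, which carry the coactivator YAP, bind many enhancers of mesenchymal cells.

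The sequences below are 101 bp windows centred on the summit of the strongest peak at 13 regions on which the results turn. They were read from the plus strand of the hg19 (GRCh37) genome and are written 5′ to 3′. Capitals mark the AP-1 motif (TGAGTCA or TGACTCA, each the reverse complement of the other) and the TEAD motif (GGAATG or its reverse complement CATTCC). The first 6 are D4-only regions among the 12 with the highest fold enrichment. The ARMH4 region lay at chr14:58600440-58600797, the ENAH region at chr1:225696295-225696576, the CDK8 region at chr13:26854500-26854903, the TMX3 region at chr18:66085594-66086438, the GFPT1 region at chr2:69487512-69488304 and the SOX9 region at chr17:70142198-70142635.
ARMH4 region: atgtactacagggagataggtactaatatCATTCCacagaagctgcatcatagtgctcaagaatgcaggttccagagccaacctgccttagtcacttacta
ENAH region: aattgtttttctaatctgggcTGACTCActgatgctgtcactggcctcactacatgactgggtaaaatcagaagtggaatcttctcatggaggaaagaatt
CDK8 region: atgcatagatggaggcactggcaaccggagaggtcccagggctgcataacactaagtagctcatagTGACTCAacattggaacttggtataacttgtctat
TMX3 region: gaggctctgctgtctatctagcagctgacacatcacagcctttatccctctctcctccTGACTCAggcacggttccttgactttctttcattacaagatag
GFPT1 region: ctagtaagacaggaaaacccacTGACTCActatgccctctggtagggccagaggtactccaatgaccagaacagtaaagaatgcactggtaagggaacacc
SOX9 region: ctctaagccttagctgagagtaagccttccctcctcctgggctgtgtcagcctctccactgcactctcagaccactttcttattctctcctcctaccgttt

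The next 4 are D2-only regions, shown because the first pair had the highest fold enrichment of the class and the IQCK and ETS1 regions hold the motifs. The CARTPT region lay at chr5:71146741-71146941, the FAHD2A region at chr2:96100394-96100598, the IQCK region at chr16:19843023-19843288, and the ETS1 region at chr11:128452898-128453115.
CARTPT region: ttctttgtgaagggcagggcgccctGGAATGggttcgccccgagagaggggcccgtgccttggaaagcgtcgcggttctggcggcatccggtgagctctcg
FAHD2A region: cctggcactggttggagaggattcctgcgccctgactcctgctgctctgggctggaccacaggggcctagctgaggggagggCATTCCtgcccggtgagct
IQCK region: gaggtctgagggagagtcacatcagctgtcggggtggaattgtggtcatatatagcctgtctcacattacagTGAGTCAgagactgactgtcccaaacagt
ETS1 region: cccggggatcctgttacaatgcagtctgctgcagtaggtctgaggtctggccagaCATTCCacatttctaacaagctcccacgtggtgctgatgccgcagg

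The last 3 had a peak in all 4 libraries and are among the shared regions named below for a low p, 6 in each direction. They are the ones whose 101 bp window holds an AP-1 or TEAD motif, and the windows of the other named shared regions hold neither. The YIPF5 region lay at chr5:143472173-143472651, the ATG16L2 region at chr11:72542484-72543109 and the C4orf19 region at chr4:37563306-37564570.
YIPF5 region: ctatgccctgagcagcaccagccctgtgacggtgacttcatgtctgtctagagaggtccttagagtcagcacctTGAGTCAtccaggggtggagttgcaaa
ATG16L2 region: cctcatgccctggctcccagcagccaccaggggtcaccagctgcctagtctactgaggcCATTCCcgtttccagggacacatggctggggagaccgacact
C4orf19 region: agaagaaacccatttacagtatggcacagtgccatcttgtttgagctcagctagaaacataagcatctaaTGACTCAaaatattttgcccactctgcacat

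The lists differed in length and depth between the days. The D2 stiff lists held 59277 and 63684 peaks and covered 29.2 and 33.1 Mb, and the D4 stiff lists held 65905 and 72840 peaks and covered 44.2 and 40.1 Mb. Depth, estimated from the local background that each list implies, was 2.32 and 2.19 fragments per kb on day 2 and 3.15 and 2.87 on day 4, so that both D4 stiff libraries were deeper than both D2 stiff libraries. With 2 libraries a group, an exact permutation test cannot give a p below 0.333, and the counts of regions therefore have no p-value. Depth moved with the day, and its part in the counts cannot be told apart from that of the day by the libraries alone.

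D4-only regions outnumbered D2-only regions in every setting tried, but by how much depended on the lists. With all lists cut to the 59277 peaks with the lowest p of the peak call there were 2144 D4-only and 1478 D2-only regions. Scaling the pileups to the depth of the shallowest stiff library left 3895 and 1084. This scaling kept 65244 of 65905 and 71673 of 72840 peaks of the D4 stiff lists. It can drop peaks but cannot add peaks missed on day 2, so it cannot show how far depth moved the counts. When a single library had to stand for a day, the counts of D4-only and D2-only regions were 7008 and 5705 with D2 stiff replicate 1 left out, and 9305 and 4775 with replicate 2 of that group left out. Leaving out replicate 1 of D4 stiff gave 14007 and 2456, and leaving out its replicate 2 gave 9771 and 3292. The other regions were 43494 with a peak in all 4 libraries, 23559 with a peak in 1, 11727 with a peak in 3, and those with a peak in 1 library of each day.

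**Figure D1:**
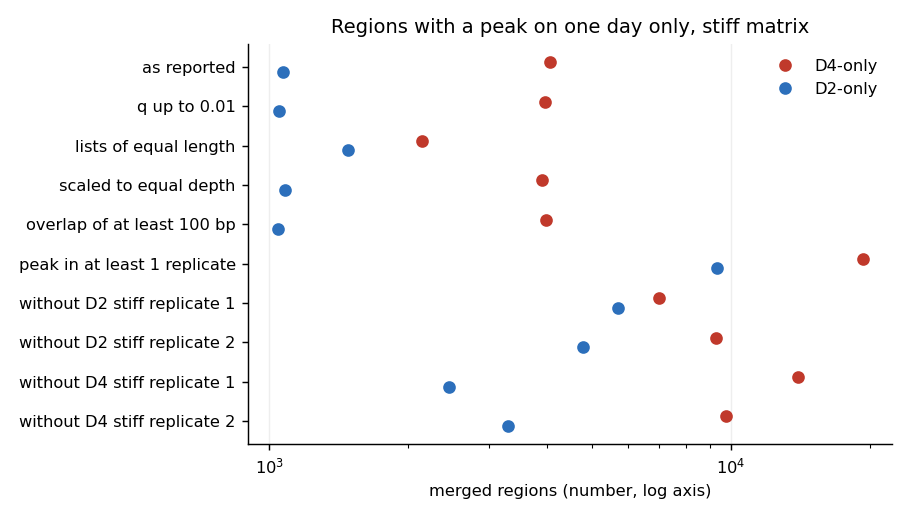
Number of merged regions with a peak on day 4 only (red) or day 2 only (blue) on a log axis, as reported and under each alternative. The 4054 D4-only regions fell to 2144 with lists of equal length, while the 1073 D2-only regions rose to 1478, and D4-only stayed the larger class in each row.

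One-day regions were weak peaks. The fold enrichment is the pileup of fragments at the summit over the local background, each plus 1, within a library. Its median at D4-only regions was 5.25 in D4 stiff replicate 1 and 5.57 in replicate 2, and at D2-only regions it was 5.38 and 5.94 in the D2 stiff libraries. At regions in all 4 libraries the day 2 medians were 8.39 and 9.22, and the day 4 medians 9.11 and 9.63. The typical D4-only peak had a pileup of 10 fragments in both libraries and stood at the 20.8th and 25.5th percentile of its list. The typical D2-only peak had pileups of 8 and 10 and stood at the 22.9th and 26th percentile. D4-only regions were wider, with a median of 498 bp against 330 bp for D2-only and 802 bp for regions in all 4 libraries, and the D4 stiff lists also had the longer peaks, with medians of 587 and 463 bp against 399 and 436 bp. Above the median of both of their lists lay 4.51% of D4-only (95% exact binomial interval 3.9 to 5.2) and 9.79% of D2-only regions (8.07 to 11.7). Intervals on shares of regions cover counting error only.

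Just outside the rule lay regions that 1 further library shared. In 5244 regions only D2 stiff replicate 1 lacked a peak, and in 2940 only D2 stiff replicate 2 did. The median fold enrichment of the former was 6.29 in the D2 stiff library that had them and 6.1 and 6.49 in the D4 stiff libraries. For the latter it was 5.68 on day 2 and 6.04 and 6.33 on day 4. In 2210 and 1333 regions only D4 stiff replicate 1 or 2 lacked a peak, with medians of 6.22 and 6.99, and of 5.82 and 6.36, in the D2 stiff libraries. The weakest D4-only peaks inside the rule had a fold enrichment of 2.18 and 2.38, and the weakest D2-only peaks 2.75 and 2.63.

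The strongest D4-only regions had fold enrichments from 9.78 to 14.1. Named were the 12 regions with the highest mean percentile of fold enrichment over both libraries. Of these 1 was at a promoter, 7 were intronic and 4 intergenic, by the annotation of any gene at the centre of the region. The ENAH region lay 15955 bp downstream of a coding start of this actin-elongation factor gene. Among starts of all annotated transcripts, one of ENAH lay 151 bp away. The region had fold enrichments of 11 and 12.1 in the D4 stiff libraries. A region 6739 bp upstream of PTGFR, which encodes the prostaglandin F receptor, had 11.4 and 12.5. The HPGD region, near the gene of the enzyme that inactivates prostaglandins, had 9.98 and 13.8. All 3 stood at percentiles from 73.4 to 93.6 of the day 4 lists. Each had a peak in both D4 soft libraries, and the ENAH region also had one in D2 soft replicate 2.

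The ARMH4 region, 770 bp upstream of a start, led the class with 10.7 and 14.1. At CDK8, a kinase of the Mediator complex, the values were 11.2 and 11.2, and at SOX9, a transcription factor of bile duct cells and of matrix-producing cells, they were 12.1 and 9.78. The SOX9 region lay 25256 bp from the coding start, 4496 bp from a start of SOX9-AS1 and 4747 bp from the nearest region found in all 4 libraries. Near CBLB, a ubiquitin ligase, they were 9.89 and 11.6, and near EPHB3, an ephrin receptor, 10.4 and 11.5. The regions nearest to TMX3, CHODL, GFPT1 and SUCLG1 had values from 9.91 to 12.1, and the nearest start of a coding gene lay between 5623 bp (CHODL) and 296278 bp (TMX3) away. The AP-1 motif was present within 100 bp of the summit in 6 of the 12 and the TEAD motif in 3. Of the 12, 2 (GFPT1 and SUCLG1) had no peak in any soft library. In D2 soft replicate 1 a peak was found at 2 of the 12 (CHODL and SOX9) and in D2 soft replicate 2 at 6. In D4 soft replicates 1 and 2 one was found at 7 and 8.

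**Figure D2:**
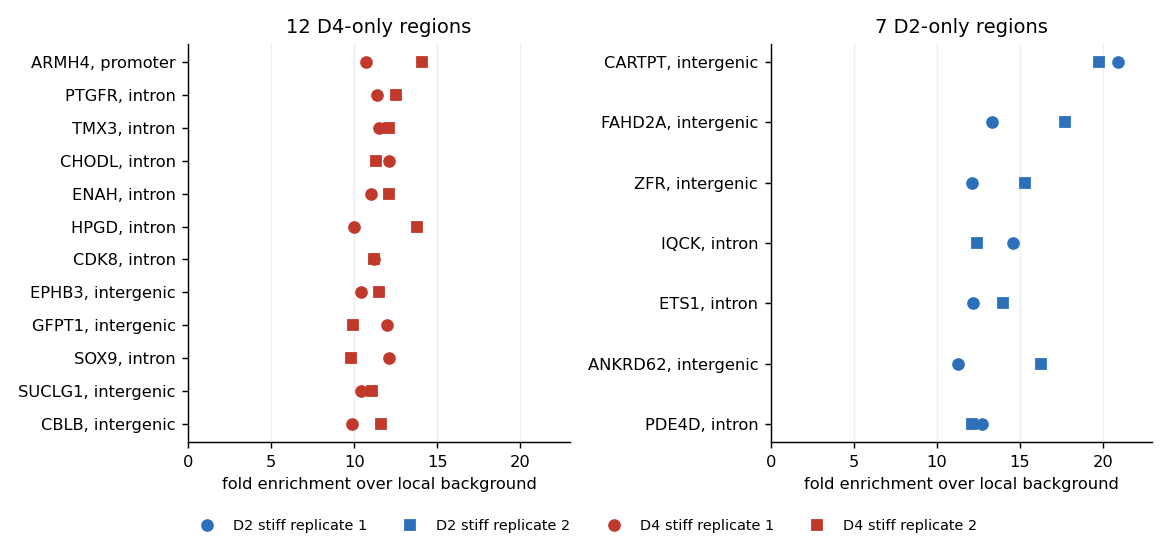
Fold enrichment (x axis, ratio to local background) in each stiff library that had a peak, at the 12 highest-ranked D4-only regions (left) and at 7 of the 8 highest-ranked D2-only regions (right), labelled by nearest coding gene and place. D4-only values lie between 9.78 and 14.1, and the CARTPT region stands apart among the D2-only regions with 20.9 and 19.8.

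Among the D2-only regions, the 2 with the highest fold enrichment lay in sequence that occurs more than once in the genome. The region 131739 bp from the start of CARTPT, a neuropeptide precursor gene, had 20.9 in D2 stiff replicate 1 and 19.8 in replicate 2, the 100th and 99.9th percentile, with pileups of 65 and 50 fragments. The region near FAHD2A had 13.3 and 17.7. Both had no peak in any of the 4 soft libraries. Each printed window holds 71 words of 31 bases. Of these, 43 at CARTPT and 60 at FAHD2A were also found elsewhere on the assembled chromosomes, in up to 4 and 3 copies. Unplaced sequence was not searched, so these copy numbers are minimum values. How reads with several matches were treated is not given in the sources used here, and the part of such reads in these peaks was not tested. Over all 46 windows of named regions, 37 had no repeated word. The D4-only windows with any were those of PTGFR (1 word), SUCLG1 (14) and KATNBL1 (39), and the SFTPA2 window of the D2-only promoters had 6.

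Of the other strongest D2-only regions, 5 are described, and their windows were found once. A region 4446 bp downstream of a start of ETS1, the gene of the founding ETS-family transcription factor, had fold enrichments of 12.2 and 14 on day 2 and holds a TEAD motif. The ETS1 locus had 51 merged regions in all, of which 3 were D2-only, 1 was D4-only and 28 were in all 4 libraries. The intronic region at IQCK, with an AP-1 motif, had 14.6 and 12.4. Another intronic region, 22451 bp upstream of a coding start of PDE4D, which encodes an enzyme that breaks down cyclic AMP, had 12.7 and 12.1. Those nearest to ZFR and ANKRD62 had values from 11.3 to 16.3. Each of these 5 had a peak in at least 1 soft library.

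Promoters made up a smaller share of one-day regions than of regions open in all 4 libraries. The centre lay within 1 kb of a coding transcription start in 411 D4-only regions, 10.1% (9.23 to 11.1), and in 58 D2-only regions, 5.41% (4.13 to 6.93). The share was 26.3% of regions in all 4 libraries (11457 of 43494) and 16.6% of all merged regions (15080 of 90928). All merged regions include those in all 4 libraries, and the remaining, weaker regions were not set apart as a comparison. The D4-only and D2-only shares were 7.82% and 3.91% within 500 bp of a start, and 17.8% and 12.4% when starts of all annotated transcripts were used. Introns held 52.2% of D4-only and 58.4% of D2-only regions, and intergenic sequence 32% and 29.6%. The median distance to a coding start was 33558 bp for D4-only, 31524 bp for D2-only and 18336 bp for regions in all 4 libraries. A region found in all 4 libraries lay within 10 kb of 32.4% of D4-only (30.9 to 33.9) and 43.8% of D2-only regions (40.8 to 46.8).

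**Figure D3:**
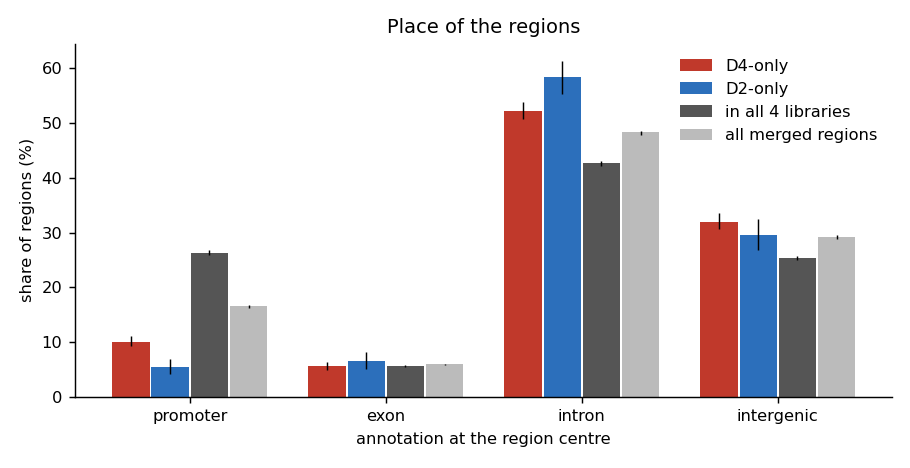
Share of regions (%, y axis, from 0) by annotation at the region centre for D4-only, D2-only, shared and all merged regions, with 95% exact binomial intervals as bars. Promoters make up 10.1% of D4-only and 5.41% of D2-only regions, below the 26.3% of regions in all 4 libraries.

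At the promoters, the strongest D4-only region after ARMH4 was that of KATNBL1, with 9.86 and 11.4. It was followed by a region 688 bp upstream of a start of RUNX1, a transcription factor of blood and mesenchymal cells, with 7.2 in D4 stiff replicate 1 and 10.5 in replicate 2. The start of the noncoding gene LINC01436 lay 218 bp from this region, and RUNX1 had a promoter region in all 4 libraries at another start. The other 5 were those of CHRNE, SHFL, TOP3B, SNX25 and ZNF528, with values from 6.48 to 9.82 and the GC box GGGCGG near the summit in all but CHRNE, which holds an AP-1 motif. None of these 8 had a peak in D2 soft replicate 1, but 7 had one in D2 soft replicate 2.

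The 8 strongest D2-only promoters had fold enrichments from 5.97 to 10.9. MMP1 encodes interstitial collagenase, which cuts fibrillar collagen, and its D2-only region, 78 bp upstream of the start, had fold enrichments of 7.65 and 7.01 on day 2, near the middle of both lists (52.9th and 39.4th percentile). A region with a peak in all 4 libraries lay 1281 bp away. PTPDC1 led the D2-only promoters with 8.79 and 10.9. CUL1, the scaffold of a ubiquitin ligase, had 7.87 and 8.4, and ELAVL1, an RNA-binding protein that stabilises messages with AU-rich elements, 7.19 and 7.41. TOX, SFTPA2 and FSD1 had values from 5.97 to 8.67.

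Many one-day promoters belonged to genes that were open at another start. Of the 20136 coding genes, 401 (1.99%) had a D4-only and 58 (0.288%) a D2-only promoter region. A further promoter region with a peak in all 4 libraries was found for 156 of the 401 (38.9%, interval 34.1 to 43.9) and for 27 of the 58 (46.6%, 33.3 to 60.1).

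The gene lists were taken from known functions in stellate cells, and 406 listed genes were matched to the annotation. D4-only promoter regions were found at 21 of these 406 and D2-only promoter regions at 6. Of all 20136 coding genes, 401 (1.99%) and 58 (0.288%) had one. The median number of merged regions a gene was 2 at hepatocyte markers and 3 to 20.5 in the other lists. For all coding genes it was 2. Among transcription factors, D4-only promoter regions lay at PRRX1 (3.3 and 3.72), FOXC2 (7.45 and 4.87), ZEB1 (3.3 and 4.7), ZEB2 (2.93 and 3.47), RUNX1, MAF (6.04 and 4.3) and JDP2 (6.36 and 3.82). ZEB1, RUNX1 and JDP2 had another promoter region in all 4 libraries, and PRRX1 and FOXC2 had no promoter peak on day 2. At ZEB2 a peak reached within 1 kb of a coding start in every library (48.9th and 19.5th percentile on day 2, 0.551th and 34.6th on day 4), and at MAF one did in D2 stiff replicate 2 (2.09th percentile). PRRX1, ZEB1 and ZEB2 are factors of mesenchymal identity, and FOXC2 is one of mesoderm and vessels.

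Of matrix genes, COL4A2, a chain of basement membrane collagen, had a D4-only promoter region with 3.6 and 4.25. Its promoter peaks stood at the 3.34th and 9.77th percentile on day 4, with none on day 2. COL4A1 had promoter peaks at the same percentiles and also none on day 2. The D4-only promoter region of TIMP3, an inhibitor of metalloproteinases, had fold enrichments of 4.87 and 4.95. That of BMP1, which trims procollagen, had 4.06 and 2.96. TNC, the matricellular protein tenascin C, had 6.94 and 7.2 beside another promoter region in all 4 libraries, and GPC1, a cell-surface proteoglycan, had 3.24 and 3.75 although a peak reached within 1 kb of a coding start in all 4 libraries, at the 47.2th to 66th percentile. On the D2-only side stood MMP1, TGM2 (5.47 and 6.31), a transglutaminase that crosslinks matrix proteins, and COL27A1 (6.79 and 6.53), the last beside another promoter region in all 4 libraries, where its strongest promoter peak stood at the 96.8th to 99.5th percentile.

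In adhesion and signalling, D4-only promoter regions lay at TNS1 (5.23 and 4.56) and TNS3 (6.26 and 6.4), adaptors of integrin adhesions, at CTNNA1 (4.54 and 6.21, with another of 3.74 and 4.61), which links cadherins to actin, and at NRG1 (3.84 and 4.95), NFKB1 (4.17 and 5.79), SMAD7 (3.17 and 3.05), the inhibitory SMAD, E2F1 (3.35 and 2.56) and E2F3 (2.22 and 2.38). All but SMAD7 had another promoter region in all 4 libraries, and SMAD7 had a promoter peak in D2 stiff replicate 1 at the 0.169th percentile. INHBA (3.15 and 5.35), a subunit of activin, and TJP1 (6.04 and 6.19), a tight junction protein, had D2-only promoter regions, again beside others in all 4.

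Over whole loci, the share of D4-only regions by functional list ran from 2.78% to 5.94%. Of all coding genes, 3150 (15.6%) were nearest to at least 1 D4-only and 984 (4.89%) to at least 1 D2-only region. D4-only regions made up 4.73% of the merged regions at YAP target genes (23 of 486) and 4.95% at collagens (14 of 283), beside 4.46% of all merged regions. They made up 4.61% in the TGF-beta pathway (17 of 369) and 4.3% at inflammatory genes (8 of 186). Below 4% were the shares of AP-1 factors, 2.78% (4 of 144), the TEAD, YAP and Hippo pathway, 2.81% (7 of 249), contractile genes, 2.84% (6 of 211), PDGF, EGF and FGF signalling, 2.88% (9 of 312), crosslinking enzymes, 3.2% (4 of 125), and integrins and focal adhesion, 3.52% (14 of 398). Above 5% were those of matrix proteases and inhibitors, 5.94% (13 of 219), cadherin junctions, 5.64% (26 of 461), matricellular proteins and proteoglycans, 5.46% (22 of 403), cell cycle genes, 5.24% (10 of 191), and mesenchymal and lineage factors, 5.15% (36 of 699). For D2-only regions, beside 1.18% of all merged regions, the range was from 0.538% at inflammatory genes (1 of 186) to 2.83% at collagens (8 of 283).

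Single loci held several one-day regions. Among YAP targets, TNS1 had 5 D4-only and no D2-only regions of 49, THBS1, an activator of latent TGF-beta, had 4 of 39, and CCN2, a matricellular growth factor, had 3 of 18. The CCN2 regions lay 44768, 156718 and 164791 bp from its start, with fold enrichments of 5.49 and 6.81, 6.04 and 10.8, and 4.39 and 6.19. COL8A1 had 5 D4-only regions and 1 D2-only region of 30, and COL6A3 had 2 D2-only regions of 20. At ACTA2, the smooth muscle actin gene, the promoter was open in every library at the 75th to 95.1th percentile and 1 D2-only region lay in an exon 19984 bp away, with 5.63 and 6.51.

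The coding gene nearest to the most D4-only regions was TENM3, a teneurin adhesion protein, with 12 of 58 merged regions, 1 of them at its promoter (7.46 and 5.57). N6AMT1 and EYS had 7 each, of 37 and 61, and JMJD1C, a histone demethylase family gene, and TAFA5 had 6 each, of 23 and 33. The JMJD1C regions were all intronic and made up 26.1% of its merged regions. The farthest D4-only regions lay 2301134 bp from the start of TENM3 and 1359663 bp from that of EYS. Among the genes with the most D2-only regions were KCNE4, SORCS2, NCKAP5 and CAMTA1 with 3 each, and NCKAP5 and CAMTA1 each had 4 D4-only regions as well. For all coding genes, 153 were nearest to 3 or more D4-only regions and 9 to 3 or more D2-only regions.

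**Figure D4:**
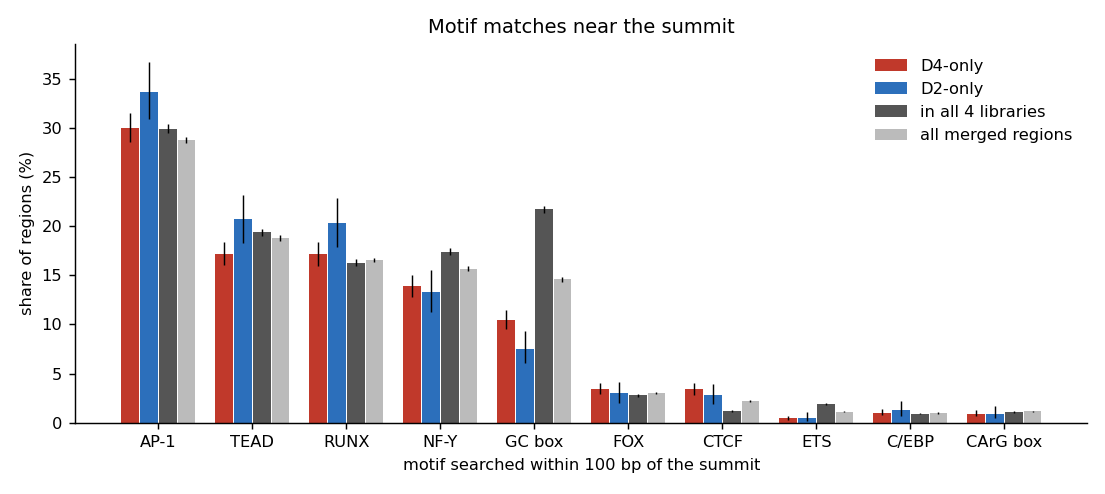
Share of regions (%, y axis, from 0) with a match to each of 10 motifs within 100 bp of the summit, for D4-only, D2-only, shared and all merged regions, with 95% exact binomial intervals. The AP-1 motif is present in 30% of D4-only, 33.7% of D2-only and 29.9% of shared regions, and the GC box in 10.5%, 7.55% and 21.7%.

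Motif shares are given beside those of all merged regions. The AP-1 motif was present in 1217 D4-only regions, 30% (28.6 to 31.5), and in 362 D2-only regions, 33.7% (30.9 to 36.7), beside 28.8% of all merged regions. Away from promoters, where the motif was more frequent, the shares were 32.4% for D4-only (30.9 to 34), 35% for D2-only (32 to 38) and 38.4% for regions in all 4 libraries (37.9 to 39), beside 33.1% for all merged regions. The TEAD motif was present in 17.2% of D4-only (16.1 to 18.4) and 20.7% of D2-only regions (18.3 to 23.2), beside 18.8% of all. The RUNX core TGTGGT was present in 17.2% and 20.3%, beside 16.6% of all. The ETS motif CCGGAAGT and the GC box, both common at promoters, were present in 0.444% and 10.5% of D4-only regions, beside 1.11% and 14.6% of all merged regions. The CTCF core motif was present in 3.4% of D4-only (2.87 to 4.01) and 2.8% of D2-only regions (1.89 to 3.97). It was present in 1.18% of regions in all 4 libraries (1.08 to 1.28, 512 of 43494) and 2.19% of all merged regions (1995 of 90928). All merged regions include those in all 4 libraries, and the remainder was not compared. All motifs were searched on both strands, matches of different motifs may overlap, and a match is a description of the sequence only.

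The soft libraries did not enter the rule and were examined at the same regions. Both D4 soft libraries had a peak at 19.1% of D4-only regions (17.9 to 20.4) and both D2 soft libraries at 3.55% (3 to 4.17). At D2-only regions the order was the same, with 12.6% (10.7 to 14.7) and 2.42% (1.59 to 3.53). Among all merged regions the shares were 49.1% and 29.4%. D2 soft replicate 1 was by far the shallowest library of the series, at 0.78 fragments per kb against 2.08 in D2 soft replicate 2, and the part of its depth in these shares was not tested. D2 soft replicate 2 alone had a peak at 31.5% of D4-only and 29.8% of D2-only regions, and D4 soft replicates 1 and 2 had one at 42.7% and 32.2% of D4-only and at 31.7% and 24.1% of D2-only regions. In no soft library was a peak found at 33.9% of D4-only regions (32.4 to 35.3) and 43% of D2-only regions (40 to 46). The share was 25.6% of all merged regions (23278 of 90928) and 1.48% of regions in all 4 stiff libraries (642 of 43494). The former include the latter, so most merged regions absent from soft lists lay outside the shared class. Shares of one-day regions were not compared with that remainder.

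To ask whether regions open on both days changed in strength, each library's fold enrichments at the 43494 shared regions were replaced by ranks, which were turned into normal scores and fitted with limma. At an adjusted p under 0.05, 0 regions (0%) had a higher and 0 (0%) a lower rank on day 4, with a lowest limma adjusted p of 0.499. Without D2 stiff replicate 2 limma called 4 regions higher, and without D4 stiff replicate 2 it called 2. Each of these fits left a single library for a day. Of the regions called without D2 stiff replicate 2, FKSG68 and PLS1 had fold enrichments of 11.4 and 12.2 in that library. Their day 4 values were no higher as a pair, 10.3 and 11.9 at FKSG68 and 12 and 12 at PLS1. At ARHGAP22 and GTF2IRD2 its values of 5.7 and 17.5 lay below both day 4 values. With all 4 libraries, limma gave 1681 higher and 1265 lower regions at an unadjusted p under 0.05. Both day 4 ranks lay above both day 2 ranks in 7544 regions (17.3%) and below them in 8552 (19.7%). A test of whether the change between days differed between the stiff and the soft matrix, over the 24246 regions with a peak in all 8 libraries, called 0 regions by limma, with 1277 at an unadjusted p under 0.05. Among lists, the median difference in rank score, D4 minus D2, ranged from -0.346 at control genes (24 regions) to 0.119 at hepatocyte markers (9 regions), beside -0.0177 over all shared regions. It was -0.188 at inflammatory genes and 0.0354 at mesenchymal and lineage factors.

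The shared regions with the lowest p in each direction are described though none passed the adjusted threshold with all 4 libraries and the design as reported. The OXCT2 region, at the promoter of a testis-type enzyme of ketone use, had fold enrichments of 5.79 and 9.09 on day 2 and 14.3 and 17.1 on day 4 (effect 2.61 ± 0.461 SE in rank score, limma adjusted p = 0.499). ANGEL1 had 4.65 and 3.34 on day 2 and 10 and 9.81 on day 4, and the YIPF5 region 5.18 and 7.02 against 11.8 and 15.2. At the promoters of NDUFA12, a subunit of respiratory complex I, and of RGPD8, day 2 values from 6.88 to 8.7 stood against day 4 values from 13.9 to 15.2. The POM121L2 region had 3.98 and 5.1 on day 2 and 9.89 and 10.3 on day 4. These 6, and the lower regions named next, were chosen among regions whose ranks did not overlap between the days. In the OXCT2 window 36 of 71 words, and at RGPD8 24 of 71, have another copy in the genome, and at TLK2, named next among the lower regions, 12 have one.

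In the other direction, the ATG16L2 region, intronic and with a TEAD motif, had 7.21 and 9.88 on day 2 and 3.94 and 3.74 on day 4 (effect -2.21 ± 0.439 SE, limma adjusted p = 0.499). The MRGBP region had 8.51 and 7.94 on day 2 and 4.37 and 3.68 on day 4, although its pileups of 27 and 38 on day 2 and 36 and 22 on day 4 overlapped between the days. The C4orf19 region, with an AP-1 motif, had 9.68 and 13.5 against 5.36 and 6.85. At POU4F2, TLK2, a kinase of chromatin assembly, and CALHM4, day 2 values lay between 8.31 and 12.1 and day 4 values between 4.3 and 6.17. Limma adjusted p was 0.546 for MRGBP and 0.62 for the other 4. Pileups also overlapped between the days at ATG16L2 (13 and 28 on day 2, 15 and 10 on day 4). The same held at TLK2 (16 and 18 on day 2, 17 and 15 on day 4). At C4orf19 the days met at 17 fragments, and at POU4F2 and CALHM4 the pileups did not overlap.

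**Figure D5:**
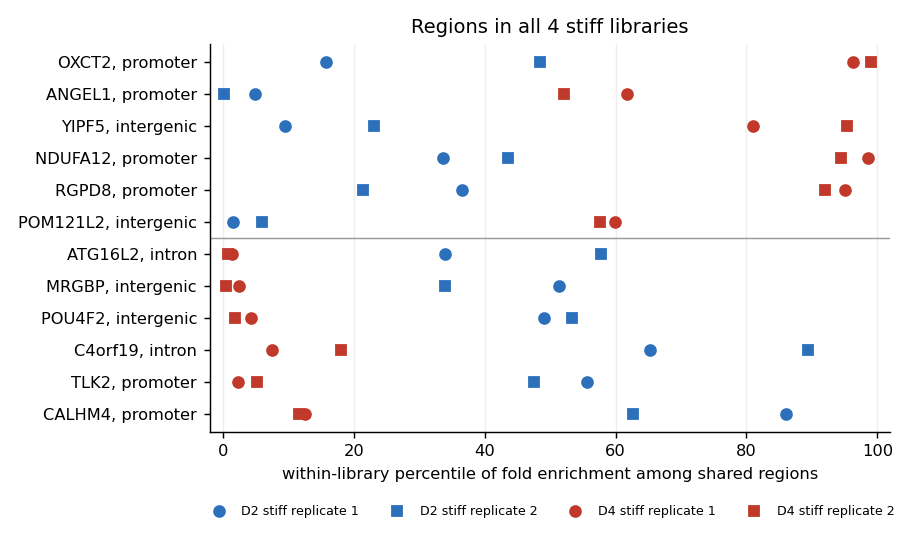
Within-library percentile of fold enrichment among the 43494 shared regions (x axis) for the 6 regions with the lowest p and a higher rank on day 4 (above the line) and the 6 with a lower rank (below), one symbol per library. Rows were chosen among regions whose D2 stiff (blue) and D4 stiff (red) ranks do not overlap, and no region passed the adjusted threshold in the fit shown.

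The label of the cell line was set against marker genes by promoter peaks, meaning a peak that reached within 1 kb of a coding start. Of 20 stellate cell markers, 12 had one in all 4 stiff libraries, among them PDGFRB, PDGFRA, VIM, COL1A1, COL1A2, ACTA2 and TAGLN. Those with none in any included LRAT, which makes the stored retinyl esters, DES and COL3A1. All 4 libraries had a promoter peak at 1 of 12 hepatocyte markers (CYP2E1, while ALB had none), 2 of 6 cholangiocyte markers (EPCAM and SOX9), 1 of 6 matched endothelial markers (KDR) and 2 of 8 macrophage and leukocyte markers (CD68 and CD14, while PTPRC had none). PECAM1 was not matched. Of 8 control genes, 7 had one in all 4, and HPRT1 lacked it in D2 stiff replicate 2. D4-only regions made up 6.37% of the merged regions at stellate cell markers (10 of 157), 7.41% at hepatocyte (2 of 27), 6.1% at cholangiocyte (5 of 82), 6.06% at endothelial (4 of 66) and 6.25% at macrophage and leukocyte markers (3 of 48), and 2.94% at control genes (1 of 34), beside 4.46% of all merged regions. Markers with a one-day promoter region were GATA4, D4-only with 3.58 and 4.72 beside a promoter peak in D2 stiff replicate 2, and GFAP, D2-only with 3.65 and 3.92.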

How the data were processed

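ATAC-seq libraries of LX-2 cells (4 stiff, 4 soft) were analysed from narrowPeak files with no header. The authors trimmed reads (TrimGalore), mapped them to hg19 with Bowtie2 (version 2.4.1 in the submitters' processing notes, which also name Picard and bedtools 2.24.0) and ran MACS2 separately on every library at q up to 0.05. Duplicate filters, Tn5 offsets and MACS2 options are not given in the sources used here. The fold enrichment that the authors deposited is a ratio to local background, comparable within a list only. The deposited −log10 p and −log10 q were used for filters and for one ranking, and the deposited score was not used. The authors' read counts and DiffBind results were not used here. The 4 stiff lists carry library numbers 2 and 3 in their peak names where the labels say replicate 1 and 2, and the labels were followed.

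Pileup and background were recovered from fold and p for 100% of peaks (tolerance 0.001). Depth was the lowest background over the shortest peak. It rests on the MACS2 model and only compares libraries. Coordinates are 1-based. Genes and starts (78701 coding) came from GENCODE release 44 on GRCh37, and the nearest gene is the coding gene with the start nearest to the region's centre. Motifs were searched in 201 bp around the summit. They were TGAGTCA or TGACTCA (AP-1), GGAATG (TEAD), TGTGGT (RUNX), CCGGAAGT (ETS), TGTTTAC (FOX), GGGCGG (GC box), CCAATC or CCAATG (NF-Y), TTGCGCAA or TTGCATCA (C/EBP), the CArG box and the CTCF core. Python 3.11.15, pysam 0.24.0 and limma 3.58.1 in R 4.3.3 were used. Repeated words of 31 bases were searched on the assembled autosomes and sex chromosomes of GRCh37 after the values had been seen. The limma fit was tested on simulated data. p-values measure only the spread between these libraries.

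Named were the 12 D4-only and 8 D2-only regions with the highest mean percentile, the 8 strongest promoters of each class, the 6 shared regions with the lowest p in each direction whose ranks did not overlap, the 5 genes with the most one-day regions of each class, and list genes with a one-day promoter region. A few named genes and 1 sequence are not reported here. Members, lists and rules were chosen with earlier results of these data known.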

Additional observations from a re-analysis of the deposited data

How the results depend on the processing

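Accepting a peak in at least 1 replicate gave 19363 D4-only and 9323 D2-only regions, and lists of equal length gave 2144 D4-only regions, of which 34.2% held the AP-1 motif. Leaving out 1 library each gave 7008 to 14007 D4-only and 2456 to 5705 D2-only regions, since one library then stood for a day. Their promoter shares were then 7.83 to 11.4% and 5.92 to 6.96%, their AP-1 shares 25.8 to 30.8% and 24.4 to 33.1%, and their TEAD shares 16.5 to 18.6% and 18.6 to 22%. Promoter shares of D4-only and D2-only regions were 7.82% and 3.91% within 500 bp of a start and 17.8% and 12.4% with starts of all transcripts. Within 50 bp of the summit, a shorter window, the AP-1 shares were 21.3% and 22.8% and the TEAD shares 9.87% and 13.2%. A stricter q, an overlap of 100 bp and scaling to equal depth left the counts within 1.5 times, and the shares within the interval, of those reported. The scaling dropped few peaks and could add none.

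For ranks of shared regions, same-numbered libraries did not deviate together (r = 0.00908 over regions). This cannot show whether they shared a culture or a day, which no label gives, and the reported fit used no block. With the replicate number as a block, limma called 4 higher and 0 lower regions. They are named after their values were seen and are OXCT2 (limma adjusted p = 0.00657), ARHGAP22 (0.0101), ANGEL1 (0.0153) and YIPF5 (0.0265). Leaving out 1 library gave 0 to 4 higher and 0 lower regions by limma, with the lone library assumed to vary like the others. Without D2 stiff replicate 2 they were FKSG68, ARHGAP22, GTF2IRD2 and PLS1, and without D4 stiff replicate 2 SMIM21 and FBXO8. At FKSG68 and PLS1 the fold enrichment in the library left out stood at the day 4 level. Ranks of −log10 p, a fold of at least 4 and all 8 libraries called 0. No named shared region changed direction where it was recomputed.

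Depth differed between the days, and D4-only peaks had a median pileup of 10 fragments. Read totals and values at positions without a peak were not used here, so absence from a list does not show closed chromatin.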
